A study of Mus musculus with 237 samples.

Results

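The hemidesmosome core genes Dst, Plec, Itga6, Itgb4, Col17a1 and Cd151 were followed across epithelial and mesenchymal cell states of mouse embryonic skin at E14.5. They are 6 of the 55335 genes in the count table and were found by their Ensembl identifiers. The series holds 237 single cells from C57BL/6N embryos carried by ICR mothers, 66 from 3 wild type embryos and 171 from 7 Trp63 mutant embryos made by Cas9 editing of zygotes. WT epidermis was freed with dispase and then trypsinized, whereas p63 knockout fetuses were digested directly, and the cells were sorted as negative for CD45, TER119 and CD140a. By the methods, libraries were kept after a qPCR screen for Krt5 in WT and for Krt8 in the p63 knockout, so keratin levels were partly chosen before sequencing. The labels also hold 70 mutant fibroblasts, so whether every library passed this screen is not known. The labels name, among others, WT basal layer, intermediate layer and K17 high cells, and in Trp63 mutant skin a surface ectoderm remnant, K5 K14high cells and mutant fibroblasts.

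Each of the 237 columns of the count table is 1 single-cell library, but the columns are named by sequencing run. Only 16 of them could be paired with a labelled cell, all from 1 WT embryo, so neither genotype nor embryo was assigned here to the others. The columns were therefore placed by their own marker levels in CPM (the count of a gene scaled by the total count of its column), and a state is not a genotype. By the labels, all 45 basal layer cells are WT and all 50 surface ectoderm remnant cells are Trp63 mutant. Differences between simple and basal columns therefore cannot be told apart from genotype, dissociation or the qPCR screen. A column was called mesenchymal with Col1a1 and Col3a1 both at 100 CPM or more (79 columns). Of the rest, simple columns had Krt8 and Krt18 at 100 CPM or more with Krt5 and Krt14 below (65 columns), and co-expressing columns had all 4 keratins at 100 CPM or more (3 columns). Basal columns had Krt5 and Krt14 at 300 CPM or more with Krt8 below 100 CPM (54 columns), and 36 columns fell in no state. Of the 16 labelled columns, all 11 WT basal layer and all 4 WT K17 high columns were basal by this rule, and the 1 WT intermediate layer column was in none.

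Hemidesmosomes fasten the basal side of an epithelial cell to the basement membrane. Integrin α6β4, a dimer of the Itga6 and Itgb4 products, and the transmembrane collagen encoded by Col17a1 bind outside the cell to laminin-332, and the plakins encoded by Plec and Dst tie them to keratin filaments inside. Cd151 encodes a tetraspanin that associates with laminin-binding integrins. Stratified epidermis has the complete form, known as type I. Simple epithelia such as that of the gut have a form known as type II, which holds plectin and α6β4 but neither the Dst nor the Col17a1 product.

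The genes lie on 6 different chromosomes of GRCm38. Dst is at chr1:33908225-34308661 on the plus strand, Plec at chr15:76170974-76232574 on the minus strand, and Itga6 at chr2:71745616-71858416 on the plus strand. Itgb4 is at chr11:115974709-116008412 on the plus strand, Col17a1 at chr19:47646344-47692094 on the minus strand, and Cd151 at chr7:141467392-141471473 on the plus strand. Counts are per gene, so the forms of Dst that start at different promoters could not be told apart.

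RefSeq promoter sequences of GRCm38.p6 were held for Dst (2 starts), Col17a1 (1 start) and Cd151 (2 starts). The Col17a1 window is shown because this gene was furthest below basal in the simple columns described below. The first Cd151 window is shown because that gene stayed near its basal level there, and both Dst windows because the gene has separate starts. Each runs from 5′ to 3′ and holds bases before the start only, within 250 bases of it. The Col17a1 window stops 52 bases short of the start, where the annotation places an exon. Capitals mark matches on either strand to 3 motifs. These are GCCNNNGGC (the form bound by AP-2), GGGCGG (known from Sp1 sites) and TATAAA (the TATA box). No window held TGANTCA (AP-1) or the p53 family site searched, in which a pair of CATG cores lies 6 bases apart.
Col17a1, chr19:47692095-47692292, minus strand: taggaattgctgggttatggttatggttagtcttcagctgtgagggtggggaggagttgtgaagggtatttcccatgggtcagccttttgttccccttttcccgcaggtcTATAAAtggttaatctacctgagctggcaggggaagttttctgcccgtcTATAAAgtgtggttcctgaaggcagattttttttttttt
Cd151, first start, chr7:141467112-141467361, plus strand: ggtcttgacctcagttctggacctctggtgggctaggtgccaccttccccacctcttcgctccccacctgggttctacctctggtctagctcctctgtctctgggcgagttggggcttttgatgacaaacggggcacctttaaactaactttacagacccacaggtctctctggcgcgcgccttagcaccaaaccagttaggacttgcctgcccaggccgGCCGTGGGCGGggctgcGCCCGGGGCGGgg
Dst, first start, chr1:34011345-34011594, plus strand: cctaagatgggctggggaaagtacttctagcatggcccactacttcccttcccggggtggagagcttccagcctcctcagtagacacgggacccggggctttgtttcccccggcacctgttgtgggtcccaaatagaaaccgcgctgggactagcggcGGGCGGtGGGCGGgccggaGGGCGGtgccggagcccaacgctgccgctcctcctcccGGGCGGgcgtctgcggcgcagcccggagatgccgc
Dst, second start, chr1:34160010-34160259, plus strand: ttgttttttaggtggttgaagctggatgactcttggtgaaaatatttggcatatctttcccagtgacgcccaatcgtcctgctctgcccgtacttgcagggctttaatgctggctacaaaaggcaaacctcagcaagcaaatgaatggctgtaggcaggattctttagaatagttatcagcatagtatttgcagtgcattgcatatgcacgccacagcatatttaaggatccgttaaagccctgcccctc

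The Col17a1 window was poor in CpG, with 2 CpG in 250 bases and a GC content of 46%, and held TATAAA with its first base at 140 and at 91 bases before the start. The first Cd151 window had 12 CpG and 62.4% GC, with 2 GCCNNNGGC matches that each overlap a GGGCGG match within the last 30 bases. The first Dst window had 22 CpG and 4 GGGCGG matches, while the second had 5 CpG and none of the 5 motifs. Over 32851 mouse promoter windows of 250 bases, the median was 6 CpG and 52.4% GC. Among them 12.4% held TATAAA, 32.7% GGGCGG, 13.7% GCCNNNGGC and 6.75% TGANTCA, and 0.49% held the p53 family site. These matches describe letters in the window and not binding sites.

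Depth was of the same order in all 4 states, with fewer genes detected in simple than in basal columns. Column totals ran from 2701500 to 19197100 counts over all columns, with medians of 7821780 in basal, 7298100 in simple, 6093580 in mesenchymal and 7094660 in co-expressing columns. The median number of genes with a count was 11735 in basal, 9722 in simple, 10759 in mesenchymal and 9466 in co-expressing columns. A gene was called kept in a column at 10 CPM or more, which is at least 27 counts even in the shallowest column. Below that level, a gene that the cell did not express cannot be told apart from one whose few transcripts were not captured. Since the columns cannot be tied to embryos, the table was treated as 1 sample. No test was made, and intervals cover counting error only: Poisson for summed counts and exact binomial (Clopper-Pearson) for shares of columns, both at 95%. Reads without molecular identifiers are not independent counts of transcripts. The Poisson intervals also leave out the spread among columns, so they are narrower than the uncertainty of a level.

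Some columns stood apart. In the simple state 8 columns, and in the basal state 3, had Hba-a1, a hemoglobin gene, at 100 CPM or more, and its erythroid list reached 470878 CPM in 1 column. Col3a1 was at 100 CPM or more in 32 of 65 simple columns and 1 of 3 co-expressing columns, with Col1a1 below 100 CPM in all of them. One simple column had Itgb4 at 1809 CPM and Itga3 at 3088 CPM but Epcam at only 13, against a simple median of 1161 for Epcam, and it was among the columns with hemoglobin reads (Hba-a1 at 1901 CPM). The marker lists of endothelium, leukocytes, neurons and muscle each summed to at most 229.9 CPM in any basal, co-expressing or simple column. Among the 79 mesenchymal columns the muscle list reached 3702 CPM, the endothelium list 859.6 CPM and the neuron list 284.7 CPM. These lists were at 100 CPM or more in 9, 8 and 6 mesenchymal columns. The 4 general epithelium markers Epcam, Cdh1, Esrp1 and Grhl2 summed to between 323 and 2291 CPM in basal and between 42.4 and 4825 CPM in simple columns, and to at most 74.5 CPM in mesenchymal ones. The 9 mesenchyme markers summed to a median of 503 CPM in basal, 788 in simple and 72762 in mesenchymal columns, with ranges of 2.95 to 2949, 1.76 to 9126 and 2524 to 131975 CPM. In basal columns nearly all of this was Dcn, at 686.3 CPM in the sum, with Col1a1 at 0.0519 and Col3a1 at 5.50 CPM, and Dcn was the 1 marker of the 9 with a median of 10 CPM or more. In simple columns Dcn was at 972 CPM in the sum, and Col3a1 also had a median of 10 CPM or more. Pdgfra, the gene of the sorted-out CD140a, was at 0.333 CPM in the summed basal columns (0 without the highest, at 17.8 CPM) and 0.0357 CPM in the summed simple ones (0.0108 without the highest) but at 261 CPM in the mesenchymal sum. The part of these columns and markers in the results below was not tested.

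The 6 genes were kept in different combinations in the simple and mesenchymal columns than in the basal ones. Basal columns kept all 6 genes in 42 of 54 cases (77.8%, interval 64.4% to 88.0%). Simple columns kept Plec and Cd151 at basal levels, kept Dst, Itga6 and Itgb4 in 27.7% to 36.9% of columns, and lacked Col17a1 in 64 of 65. Mesenchymal columns kept Plec, kept Dst, Itga6 and Cd151 in a minority, and lacked both Itgb4 and Col17a1 in nearly all columns.

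**Figure D1:**
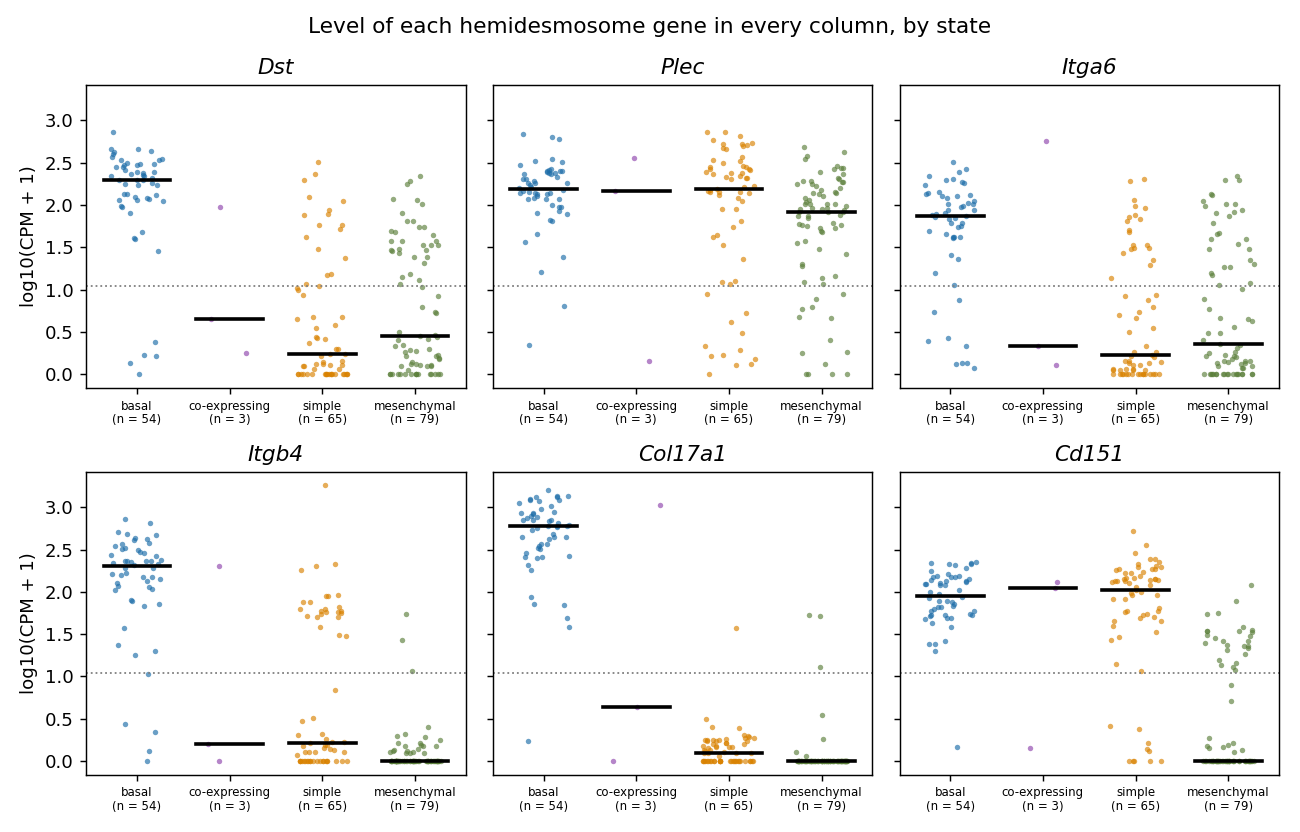
Level of each gene as log10(CPM + 1) on the vertical axis, with 1 point per column and the 4 states along the horizontal axis. Black bars are medians and the dotted line is 10 CPM. Plec and Cd151 have like medians in basal and simple columns, while Col17a1 is above the line in 53 of 54 basal and 1 of 65 simple columns.

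Col17a1 separated the states most sharply. In basal columns it ran from 0.698 to 1580 CPM with a median of 599.5, and 53 of 54 columns kept it (98.1%, interval 90.1% to 99.95%). In simple columns it ran from 0 to 36.7 CPM with a median of 0.251, 29 columns had no count, and the second highest value was 2.12 CPM. In mesenchymal columns it ran from 0 to 51.5 CPM, 72 of 79 had no count, and 3 kept it. The 3 co-expressing columns had 1063, 0 and 3.34 CPM. No simple or mesenchymal column reached the basal median, and 53 of 54 basal columns stood above the highest simple column. Summed over columns, Col17a1 was at 689.7 CPM (687.3 to 692.1) in basal, 0.702 CPM (0.634 to 0.775) in simple and 1.59 CPM (1.48 to 1.71) in mesenchymal columns. The basal level was 983 times the simple one and 432 times the mesenchymal one, and the log2 ratios with a pseudocount of 1 CPM were -8.67 and -8.06. Without the highest of the 79 columns, the mesenchymal sum was 1.001 CPM. Without its highest column the basal sum was 664.4 CPM, which lies outside the Poisson interval.

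Itgb4, the integrin chain found only in the α6β4 dimer, was mostly either below 1 CPM or kept in simple columns, a trait shared with other members. Basal columns ran from 0 to 733.9 CPM with a median of 199.0, and 49 of 54 kept it. Simple columns ran from 0 to 1809 CPM with a median of 0.613. Of the 65, 36 were below 1 CPM, 5 lay between 1 and 10 CPM, and 24 kept it (36.9%, interval 25.3% to 49.8%). In the same order these counts were 35, 10 and 20 for Itga6, 34, 13 and 18 for Dst, and 7, 5 and 53 for Plec. Mesenchymal columns ran from 0 to 54.1 CPM, with 56 of 79 at 0 and 3 keeping it. The co-expressing columns had 198.9, 0 and 0.58 CPM. The summed level was 231.3 CPM in basal, 49.1 CPM in simple and 1.23 CPM in mesenchymal columns, with log2 ratios to basal of -2.21 and -6.71. The simple level rests in large part on the column at 1809 CPM. Without it the sum was 28.6 CPM and the log2 ratio -2.97. Likewise, without its highest column the mesenchymal sum was 0.535 CPM. With that simple column included, the 4-fold call was lost for the mean of the columns' CPM and for the 33 simple columns with both collagens below 100 CPM, where the log2 ratios were -1.94 and -1.86.

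Itga6, whose product pairs with the β4 and also the β1 chain, was the least uniformly kept gene in the basal state. It ran from 0.168 to 322.9 CPM in basal columns with a median of 73.8, and 45 of 54 kept it (83.3%, interval 70.7% to 92.1%). In simple columns it ran from 0 to 199.6 CPM with a median of 0.70, 35 columns were below 1 CPM and 20 kept it. In mesenchymal columns it ran from 0 to 217.8 CPM with a median of 1.28, and 29 of 79 kept it. The co-expressing columns had 573.2, 1.13 and 0.29 CPM, the first of which was above every basal column. Summed levels were 88.3 CPM in basal, 17.3 CPM in simple and 26.97 CPM in mesenchymal columns. The log2 ratio was -2.29 for simple and -1.67 for mesenchymal columns, the latter short of 4-fold.

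Dst, the plakin that in its epithelial form joins the complete hemidesmosome to keratins, ran from 0 to 734.9 CPM in basal columns with a median of 196.8, and 49 of 54 kept it. Simple columns ran from 0 to 320.9 CPM with a median of 0.737, and 18 of 65 kept it (27.7%, interval 17.3% to 40.2%). Mesenchymal columns ran from 0 to 221.8 CPM with a median of 1.79, and 32 of 79 kept it (40.5%, interval 29.6% to 52.2%). The co-expressing columns had 93.7, 3.52 and 0.798 CPM. Only 3 simple columns and 1 mesenchymal column reached the basal median. The summed levels of simple and mesenchymal columns were both 25.8 CPM against 218 CPM in basal columns. The log2 ratio was -3.03 in each case. Without its highest column the simple sum was 18.98 CPM and the log2 ratio -3.45. The mesenchymal sum without its highest column was 22.48 CPM and the log2 ratio -3.22.

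Plec, the plakin of both hemidesmosome types and of other cytoskeletal links, was kept in most columns of the 3 large states. Basal columns ran from 1.23 to 696.5 CPM with a median of 152.9 and 52 of 54 kept it. Simple columns ran from 0 to 733.8 CPM with a median of 155.7 and 53 of 65 kept it (81.5%, interval 69.97% to 90.1%). Mesenchymal columns ran from 0 to 485 CPM with a median of 81.7 and 65 of 79 kept it (82.3%, interval 72.1% to 90.0%). The co-expressing columns had 360.1, 146.3 and 0.435 CPM. Summed levels were 188.4 CPM in basal, 212.9 CPM in simple and 110.9 CPM in mesenchymal columns, with log2 ratios of 0.18 and -0.76. Of the simple columns, 33 of 65 were at or above the basal median.

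Cd151 followed Plec in the epithelium but not in the mesenchyme. Basal columns ran from 0.465 to 225.1 CPM with a median of 89.2 and 53 of 54 kept it. Simple columns ran from 0 to 519 CPM with a median of 103.3 and 55 of 65 kept it (84.6%, interval 73.5% to 92.4%). Mesenchymal columns ran from 0 to 118.8 CPM, 42 of 79 had no count, and 27 kept it (34.2%, interval 23.9% to 45.7%). The co-expressing columns had 127.8, 110.8 and 0.435 CPM. Summed levels were 102.2 CPM in basal, 120.5 CPM in simple and 11.6 CPM in mesenchymal columns, with log2 ratios of 0.23 and -3.03. In the simple columns with both collagens below 100 CPM the ratio was -0.003, so no direction is given for Cd151 between simple and basal columns. Of the nonzero Cd151 values, 44.7% carried a fraction in the deposited table, the highest share of the 6 genes, and 193 bases of its exons overlap an antisense gene, Gm10575. The sources used here do not state whether counting used the strand.

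**Figure D2:**
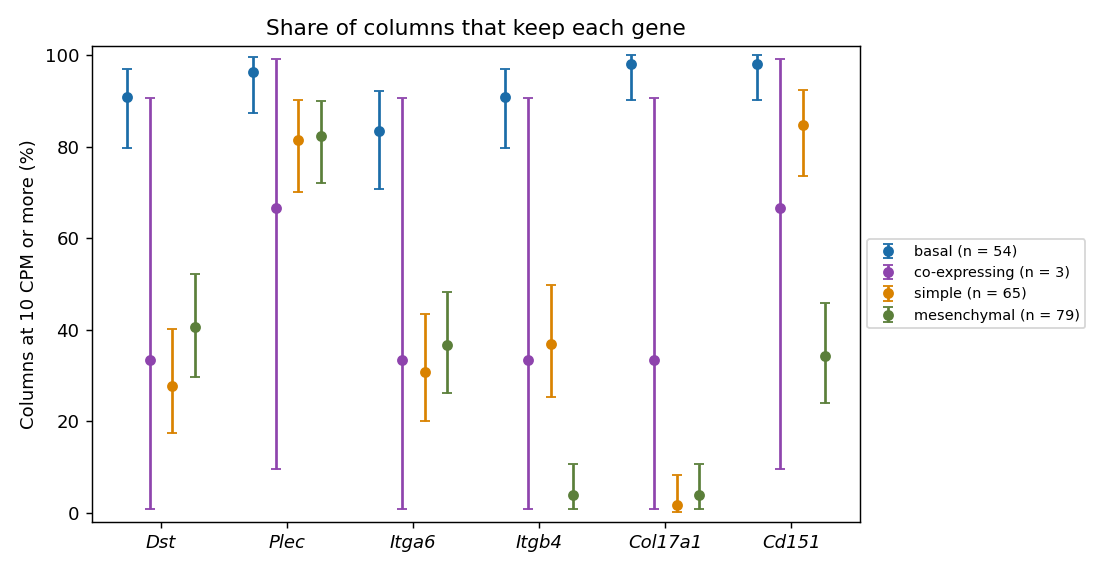
Percentage of columns with each gene at 10 CPM or more, with points colored by state and bars for the exact 95% binomial interval. The bars of the 3 co-expressing columns span most of the axis. In simple columns Plec and Cd151 sit at 81.5% and 84.6%, Dst, Itga6 and Itgb4 between 27.7% and 36.9%, and Col17a1 at 1.54%.

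The order of the states therefore differed from gene to gene. By median, Col17a1, Itgb4, Dst and Itga6 were highest in basal columns by a wide margin. The simple and mesenchymal medians of Dst, Itga6 and Col17a1 were all below 2 CPM and their ranges overlapped throughout. For Plec the basal and simple medians, 152.9 and 155.7 CPM, differed by far less than the spread among columns, and the mesenchymal median was lowest. Levels of different genes can be set side by side only per length. Per kilobase of exon, the summed basal level was highest for Col17a1 at 114.7 CPM per kb, followed by Cd151 at 37.3, Itgb4 at 32.97, Plec at 10.4, Itga6 at 9.78 and Dst at 5.30. In the simple sum the order by CPM per kb began with Cd151 at 43.95 and Plec at 11.8 and ended with Dst at 0.626 and Col17a1 at 0.117. In the mesenchymal sum Plec led at 6.12 CPM per kb and Itgb4 was last at 0.175. The exon lengths of Dst and Plec join several forms, which lowers their values per kilobase.

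Against all genes, the simple state placed 4 of the 6 members at least 4-fold below basal (Dst, Itga6, Itgb4 and Col17a1) and none above, where 4.02% of 12361 genes were 4-fold lower and 6.61% higher. The members' median log2 ratio was -2.25, against 0.04 for all genes tested. In the mesenchymal state 4 of 6 were at least 4-fold below basal (Dst, Itgb4, Col17a1 and Cd151), where 6.59% of 12653 genes were lower and 10.5% higher. Their median log2 ratio was -3.03, against -0.23 for all genes, and the mesenchymal ratios are to be read against that shift. Both comparisons use the same basal columns. By the labels, all 70 mutant fibroblasts come from the same Trp63 mutant embryo, and most surface ectoderm remnant cells come from other mutant embryos. State and embryo therefore cannot be told apart where mesenchymal columns are compared. Set directly against the simple sum, the mesenchymal sum was at least 4-fold lower for Itgb4 (log2 ratio -4.49) and Cd151 (log2 ratio -3.27), where 9.93% of 12987 genes were lower and 9.8% higher. For Dst both sums were 25.8 CPM. Without the highest column of each state they were 18.98 CPM in simple and 22.48 CPM in mesenchymal columns.

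The other genes of the adhesion complex were read from lists that had been chosen with earlier results known. Lama3 and Lamb3, which encode chains of the α6β4 ligand laminin-332, and Col7a1, the anchoring fibril collagen, were each at least 4-fold lower in simple than in basal columns. Lama3 was at 195.6 CPM in basal and 14.2 CPM in simple columns, and 51 of 54 basal but 11 of 65 simple columns kept it. Lamb3 was at 149.7 and 6.39 CPM, and 5 of 65 simple columns kept it. Col7a1 was at 62.6 CPM in basal and 0.0428 CPM in simple columns. In mesenchymal columns Lama3 had no count in 79 columns, for which the Poisson interval of the sum reaches 0.0077 CPM, while Col7a1 was at 115.5 CPM.

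In simple columns 4.02% of all 12361 genes tested were 4-fold lower and 6.61% higher, and the counts of the lists below are to be read beside these shares. Among 8 other integrin subunits, 2 were 4-fold lower in simple columns and none higher. The 2 lower subunits were Itga2, at 18.97 CPM in basal and 0.0107 CPM in simple columns, and Itgb5, at 52.6 and 10.3 CPM (5.90 CPM in simple columns without the highest, at 387.3 CPM). Itga3, the other laminin-332 receptor chain, had a log2 ratio of -1.21, with 240.6 CPM in basal and 103.7 CPM in simple columns (68.96 CPM without the column at 3088 CPM), and Itgb1, its partner, one of -0.07. None of 5 other plakins passed 4-fold in either direction in simple columns, and their median log2 ratio was 0.77. In mesenchymal columns 4 of those 5 (Dsp, Evpl, Ppl and Eppk1) were 4-fold lower and Macf1 was not, where 6.59% of 12653 genes were lower. None of 5 other tetraspanins passed 4-fold in simple columns, with a median log2 ratio of 0.98. Of 5 other matrix receptors, only Sdc1, a syndecan, was 4-fold lower in simple columns, at 13.9 CPM against 231.8 CPM in basal columns.

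**Figure D3:**
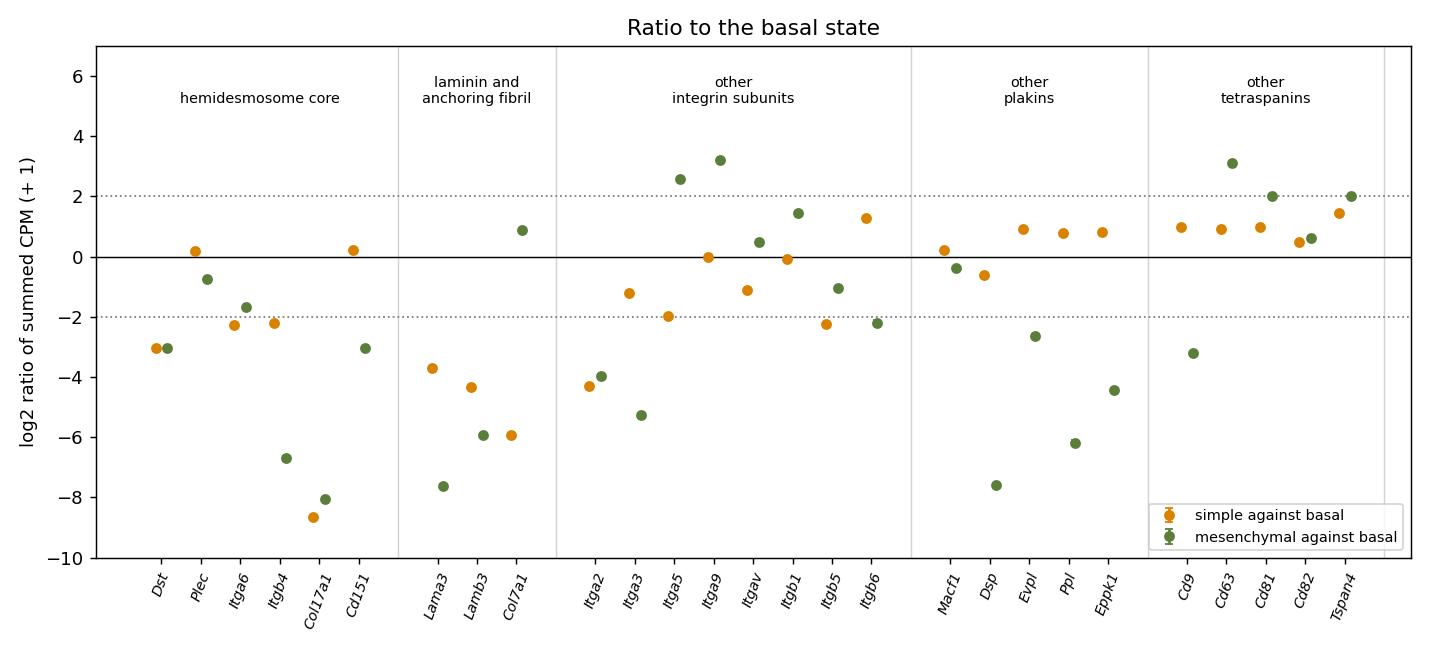
Log2 ratio of summed CPM (pseudocount 1 CPM) to the basal state on the vertical axis for the hemidesmosome genes and genes of 4 other lists, with orange points for simple and green points for mesenchymal columns. Dotted lines mark 4-fold, and the bars are Poisson intervals of the read counts that are mostly smaller than the points and leave out the spread among columns. Col17a1 has the lowest simple value at -8.67, and Plec and Cd151 lie near 0 in simple columns.

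The number of genes kept per column was highest in the basal state. At least 5 of 6 were kept in 49 of 54 basal columns (90.7%, interval 79.7% to 96.9%). The count was 4 of 65 in simple columns (6.15%, interval 1.70% to 15.01%) and 1 of 79 in mesenchymal columns (1.27%, interval 0.032% to 6.85%). None of 65 simple and none of 79 mesenchymal columns kept all 6, which allows shares of up to 5.52% and 4.56%. The 4 simple columns with 5 genes all lacked Col17a1 alone, at 0.601 CPM or less, and had Dst between 40.6 and 320.9 CPM. In the simple state, the number of genes kept had a Spearman rho of 0.23 with the number of genes detected and of -0.07 with the total count over 65 columns. In basal columns the rho with genes detected was 0.40 over 54 columns.

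**Figure D4:**
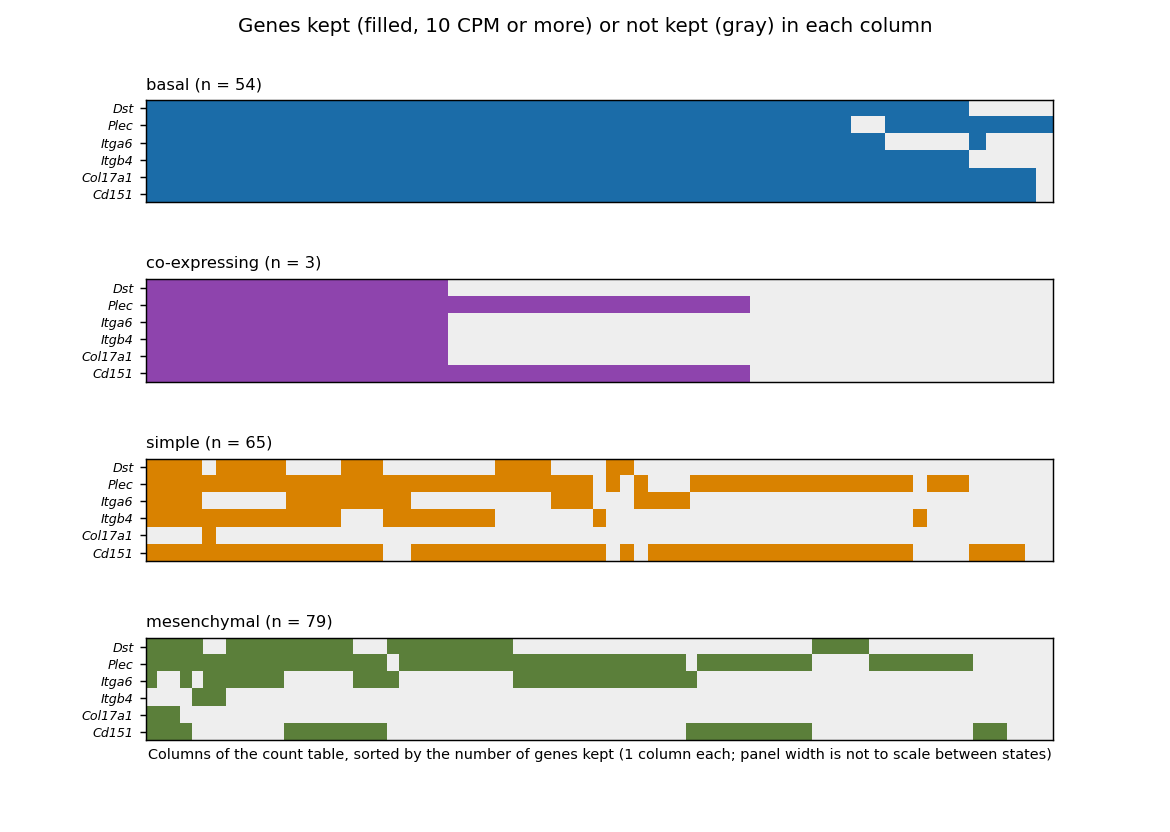
Each vertical strip is 1 column and each row 1 gene, filled where the gene is at 10 CPM or more, with a panel per state and columns sorted by the number of genes kept. Panel widths are not to scale between states. Basal columns are filled throughout except for 12 at the right, and in simple columns only the Plec and Cd151 rows are mostly filled.

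In the basal state 12 of 54 columns did not keep every gene. Of these, 5 lacked Itga6 alone, 2 lacked Plec alone and 5 lacked several genes. Dst and Itgb4 were kept in the same 49 columns and missing from the same 5, with no column keeping only 1 of them. Col17a1 and Cd151 were likewise kept in the same 53 columns, but only 1 column lacked them, the one that kept Plec alone. Their Spearman rho was 0.08. Of the 9 columns without Itga6, 5 still kept the other 5 genes, and the other 4 lacked Dst and Itgb4 as well. Plec was at 44.8 CPM or more in all 5 columns that lacked Dst and Itgb4, and missing from 2 that kept all the other 5. Over the 54 basal columns, Dst was the gene most like Itgb4 and Itgb4 the gene most like Dst of 10217 genes compared (Pearson r = 0.87 on log2(CPM + 1)). As ranks their agreement was lower (Spearman rho 0.42), and the highest Spearman rho of any pair was 0.62, for Itgb4 and Col17a1. Columns share depth in these values: the total count had a rho of 0.32 with Itgb4, 0.43 with Col17a1 and 0.23 with Dst.

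The 5 basal columns without Dst and Itgb4 were not alike in other markers. In 3 of them Krt1 and Krt10, keratins of suprabasal keratinocytes, were high, with Krt1 at 838.3, 1437 and 4144 CPM and Krt10 at 401.3, 5663 and 2403 CPM. The second of these kept Plec only, with Dst at 0 and Col17a1 at 0.698 CPM, and the other two kept Plec, Col17a1 and Cd151. The fourth had Krt1 at 1.87 CPM and kept Plec, Col17a1 and Cd151. The fifth had Krt1 at 2.49 CPM and also kept Itga6, at 102.7 CPM. Of the 48 basal columns with Krt1 and Krt10 both under 100 CPM, 46 kept Dst and Itgb4, and all 48 kept Col17a1 and Cd151. Of the 6 with either at 100 CPM or more, 3 kept Dst and Itgb4, 2 kept Itga6, and all 6 kept Plec. The summed Dst level was 59.9 CPM in those 6 columns and 237.5 CPM in the 48, while Plec was at 186.3 and 188.6 CPM.

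In the simple state the commonest pattern was Plec and Cd151 alone, in 16 of 65 columns (24.6%), and both genes were kept in 46 (70.8%) with or without others. Cd151 was kept in 86.8% of the columns with Plec and 75% of those without, so the joint share mostly restates how often each gene is kept. Itga6 and Itgb4, the chains of 1 dimer, were kept together in 10 columns, Itga6 without Itgb4 in 10, Itgb4 without Itga6 in 14, and neither in 31. Itgb4 was thus kept in 50% of the columns with Itga6 and 31.1% of those without. In basal columns they were together in 44 of 54. Dst and Itgb4, which were inseparable in basal columns, were together in 9 simple columns and apart in 24. Itgb4 was kept in 50% of the simple columns with Dst and 31.9% of those without. The single simple column that kept Col17a1, at 36.7 CPM, also kept Plec at 585 CPM, Itgb4 at 90.1 CPM and Cd151 at 32.4 CPM, without Dst or Itga6. The highest Spearman rho of any pair in simple columns was 0.29, for Plec and Itgb4.

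Trp63, the gene mutated in part of the embryos, was at 10 CPM or more in 49 of 65 simple columns, with 199 CPM in the simple sum against 552.9 CPM in the basal sum. Trp63 reads do not show whether a column is mutant, since an edited gene can still be transcribed. Plec was kept in 44 of the 49 simple columns with Trp63 and 9 of the 16 without, and Cd151 in 45 of 49 and 10 of 16. Dst was kept in 16 of 49 and 2 of 16, Itga6 in 15 of 49 and 5 of 16, Itgb4 in 20 of 49 and 4 of 16, and Col17a1 in 1 of 49 and 0 of 16. The columns with Trp63 also had more genes detected, with a median of 9802 against 9202, and the part of this in the counts was not tested. The 32 simple columns with Col3a1 at 100 CPM or more and the 33 with both collagens below it were also set side by side. Plec was kept in 27 and 26, Cd151 in 27 and 28, Itgb4 in 11 and 13, Itga6 in 12 and 8, Dst in 9 and 9, and Col17a1 in 1 and 0. The summed levels were 26.7 and 9.86 CPM for Itga6, 15.8 and 33.5 CPM for Dst, and 31.4 and 62.96 CPM for Itgb4, the last with the column at 1809 CPM among the 33. The simple sum of 17.3 CPM for Itga6 thus moves by more than 1.5 times with the columns taken, and no difference between these columns was tested.

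In mesenchymal columns the commonest patterns were Plec with Itga6 in 15 of 79, and Plec with Cd151 or Plec with Dst in 10 each. Itga6 and Itgb4 were together in 2 columns and Itga6 was without Itgb4 in 27. Of the 29 columns with Itga6, 27 kept Plec, against 38 of the 50 without it. The 3 mesenchymal columns with Col17a1, at 11.9, 50.01 and 51.5 CPM, all kept Dst, Plec and Cd151, and none had a count of Epcam, Krt5 or Krt14.

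**Figure D5:**
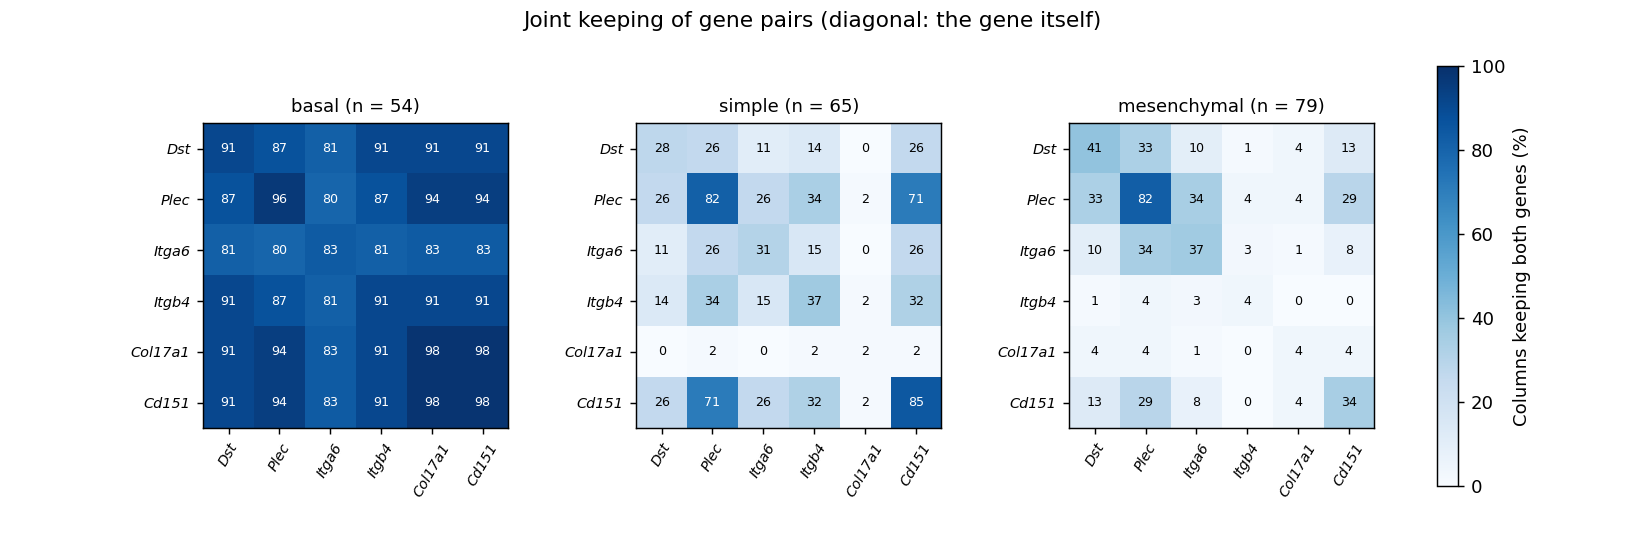
Percentage of columns that keep both genes of a pair at 10 CPM or more, in 3 panels for basal, simple and mesenchymal columns, with the share that keeps the gene itself on the diagonal. Every basal pair is at 79.6% or more. In simple columns the pair of Plec and Cd151 is at 70.8% and that of Itga6 and Itgb4 at 15.4%.

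The 3 co-expressing columns shared no pattern, and their sum rests on 1 of them. The first kept all 6 genes and had Krt5 at 3743, Krt14 at 5190, Krt8 at 289.4 and Atoh1, a Merkel cell marker, at 488.7 CPM, with Krt20 at 0. The second had Krt8 at 2234 and Krt5 at 107.8 CPM and kept Plec and Cd151 only, the commonest simple pattern. The third had Krt14 at 25108 and Krt6a at 4009 CPM, and all 6 members were at 3.34 CPM or less. Of that column's adhesion genes outside the list, Itgb1 was also low, at 1.52 CPM. In the sum, Dst and Itgb4 were at least 4-fold below basal and no member above, where 29.1% of 11854 genes were lower and 7.69% higher. The members' median log2 ratio was -1.05, against -0.77 for all genes. Without the first column it was -6.08, and without the third -0.08.

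Over the 201 columns in the 4 states, Col17a1 was most like Krt14 (Pearson r = 0.93 on log2(CPM + 1)), Krt5 (r = 0.92) and Serpinb10 (r = 0.89) of 10129 genes compared. Itgb4 was most like Krt5 (r = 0.77), Col17a1 (r = 0.76) and Krt14 (r = 0.76). Krt5 and Krt14 set the states, so their place here follows in part from the rule. Dst was most like Pltp (r = 0.70), Col17a1 (r = 0.68) and Serpinb10 (r = 0.66), and Itga6 most like Serpinb10 (r = 0.51), Frmpd1 (r = 0.50) and Jag2 (r = 0.50). Cd151 was most like Lsr (r = 0.71), Bcam (r = 0.71) and Spint2 (r = 0.70), none of them members. Plec was most like Iqgap1 (r = 0.50), Gm10925 (r = 0.48) and Gm28437 (r = 0.47), and its closest member was Cd151 at rank 88 (r = 0.29).

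Likeness within the 54 basal columns alone leaves out the contrast of basal with the other states, but not differences among basal columns. Of these columns, 6 had Krt1 or Krt10 at 100 CPM or more. Summed Dst was 59.9 CPM in those 6 and 237.5 CPM in the 48 others, and Itgb4 was 104.0 and 246.9 CPM. The part of those 6 columns in the r values below was not tested. The genes most like Dst after Itgb4 were Vcan (r = 0.75) and Wnt6 (r = 0.74). Those most like Itgb4 after Dst were Gas1 (r = 0.73) and Sparc (r = 0.69). Itga6 was most like Anxa6 (r = 0.66), Wnt6 (r = 0.59) and Ftl1-ps1 (r = 0.56). Col17a1 and Cd151 had Oat (r = 0.76 and 0.65) and Ajuba (r = 0.71 and 0.63) in common among their closest 3. The remaining gene was Megf6 (r = 0.76) for Col17a1 and Tnfrsf19 (r = 0.64) for Cd151. Between Col17a1 and Cd151 themselves r was 0.53 but Spearman rho only 0.08. The part of the 1 column that kept neither in these r values was not tested. Among the closest genes to Plec were Apc (r = 0.60) and Nfu1 (r = 0.58), and no other member came closer to it than rank 2422 (Dst, r = 0.15). All of these are descriptions over columns of 1 table that share depth, and no test was made of any of them.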

How the data were processed

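Single-cell libraries (SMART-Seq HT, Nextera XT, no molecular identifiers) were aligned by the authors to mm10 with HISAT2 and counted with featureCounts on Ensembl release 97, and the submitters' notes also name Trimmomatic and DESeq2 1.36.0. The deposited values were taken as estimated counts, not normalized, since column totals differ and many values are fractional. Of the nonzero values 23.2% carry a fraction, and all were rounded here. Strand and multi-mapping settings are not given in the sources used here. CPM is the rounded count over the column total. Ratios are log2 of summed CPM with a pseudocount of 1 CPM, and 4-fold calls use genes at 5 CPM or more in either sum. With 1 pooled table, no test, SD or SE was made. The members, lists and tests were chosen with earlier results of these data known. All 6 members are named. Other lists give up to 2 genes per direction with the largest change from basal to simple beside Lama3 and Lamb3, and likeness lists the 3 closest genes of those at 10 CPM or more in at least 20% of columns. Some results under these rules are not reported here, and a few further genes were named after their values were seen. Exon lengths and overlaps came from GENCODE M21, which differs from the authors' annotation, and promoters from RefSeq on GRCm38.p6. Ratios were checked on simulated data. No 2 columns held identical values (highest correlation between columns 0.76). Alternatives were other summaries, fractions, TMM (edgeR 4.0.16), size factors (DESeq2 1.42.0), pseudocount, thresholds, depth and left-out columns. Python 3.11.15, numpy 2.4.6, pandas 2.3.3, scipy 1.17.1, matplotlib 3.10.9 and R 4.3.3 were used.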

Additional observations from a re-analysis of the deposited data

How the results depend on the processing

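No paired analysis was possible because the columns carry no sample or replicate number and no test was made. The median log2 ratio of the members to basal stayed negative in all 3 states under every alternative run. For simple columns it was -1.99 with the mean of the columns' CPM, -6.14 with their median, -2.20 with TMM, -2.29 with a pseudocount of 0.1 CPM, -2.32 with thresholds multiplied by 2, -2.32 without basal columns high in Krt1 or Krt10, and -2.39 without columns high in Hba-a1. For mesenchymal columns the values were -3.10 (mean), -6.32 (median), -2.76 (TMM), -2.68 (size factors), -3.10 (pseudocount), -2.55 (thresholds divided by 2), -3.13 (basal without Krt1 or Krt10) and -3.12 (all 4 keratins under 100 CPM). For co-expressing columns they were -0.60 (mean), -5.29 (median), -0.65 (TMM), -0.43 (size factors), -1.34 (thresholds divided by 2, 9 columns) and -1.13 (basal without Krt1 or Krt10). Leaving out each column in turn gave -2.62 to -2.20 for simple, -3.15 to -2.97 for mesenchymal and -6.08 to -0.0799 for co-expressing columns. The share of columns keeping at least 5 members was 79.6% in basal columns at a 50 CPM limit, 16.9% and 1.54% in simple columns at 1 and 50 CPM, and 0% in mesenchymal columns at 50 CPM or with thresholds multiplied by 2. The other shares, including those after thinning every column to 500000 counts, stayed within the binomial interval. The 5000-gene minimum removed no column, and without the 5 CPM filter 578 genes were 4-fold lower in simple columns against 497 with it. The settings on Hba-a1 and on single collagens were chosen after seeing the data. Among members, Dst, Itga6 and Col17a1 stayed 4-fold lower in simple columns under all 13 alternatives and Itgb4 under 11, while in co-expressing columns Itgb4 stayed 4-fold lower under 8 of 13 and Plec, Itga6 and Cd151 each changed sign under 2. The cause of these shifts was not tested.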

Other observations

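The 36 columns in no state held further patterns of the 6 genes. In 6 columns Krt1 and Krt10 were both at 1000 CPM or more, Krt5 lay between 455.8 and 1645 CPM and Krt14 at 47.3 CPM or less. All 6 kept Plec, at 84.9 to 446.1 CPM with a median of 319.8. None of them kept Itga6, at 0.302 CPM or less, or Col17a1, at 1.04 CPM or less. Dst was kept in 1, Itgb4 in 2 and Cd151 in 4. The 1 labelled WT intermediate layer column belongs to these 6 and kept Plec alone.

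In 23 unplaced columns Krt8 was at 100 CPM or more, with Krt5 at a median of 199.3 CPM and Krt14 at a median of 8 CPM. They kept Plec and Cd151 in 18 each, Dst and Itgb4 in 9 each, Itga6 in 7 and Col17a1 in 2. The 2 with Col17a1, at 372.6 and 806.7 CPM, kept all 6 genes and had Krt5, Krt14 and Krt8 at 2956, 4199 and 103.9 CPM in the one and 4005, 6545 and 366.2 CPM in the other.

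In 6 unplaced columns Vim was at 1000 CPM or more and all 4 keratins were below 100 CPM. Itga6 was kept in 5 of them and Cd151 in all 6, while Col17a1 was at 0.619 CPM or less. In 3 of these 6, Itga6 was at 418, 523 and 656.1 CPM, above every basal column, with Dst at 265.4, 759.8 and 539 CPM. The last 2 of those also kept Itgb4, at 134.9 and 103.9 CPM. In 2 others, Kit and Dct, melanocyte markers, were at 3087 and 2218 CPM and at 5337 and 2050.5 CPM, with Itga6 at 86.7 and 162.6 CPM and Itgb4 at 0.31 CPM or less. These columns were singled out after their values were seen.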
